A study of Homo sapiens with 33 samples.

Results

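EED226 is a small molecule that binds EED, a subunit of the Polycomb repressive complex PRC2, which places methyl groups on lysine 27 of histone H3 and keeps genes silent. The results concern the way in which its effect on gene expression in Karpas422 cells, a human diffuse large B cell lymphoma line, changed from 24 h to 48 h. The series has 33 arrays in 11 groups of 3, and 12 arrays enter this comparison: EED226 at 5 µM for 48 h, DMSO for 48 h, EED226 at 5 µM for 24 h and DMSO for 24 h, with 3 arrays each that the design text calls biological triplicates. The titles name EED226, which sets the groups, whereas the design text speaks of an EZH2 inhibitor and the treatment protocol, the same for every sample, lists EI1 beside EED226 and DMSO; which compound was given rests on the titles. DMSO is the solvent, all groups are the same line, and the series title gives its EZH2 as mutant. The quantity tested was a difference of differences: EED226 minus DMSO at 48 h, minus EED226 minus DMSO at 24 h, for each of 19775 genes. A positive value, called a larger difference at 48 h, means that EED226 minus DMSO was higher at 48 h than at 24 h. All values are on the log2 scale of RMA, a summary of the probes of each probe set.

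When PRC2 is blocked, methylated histones are lost gradually, as cells divide and replace them, so silent genes can respond at different times. Interferons are secreted signals of infection: through their receptors, JAK kinases and STAT and IRF factors they switch on antiviral effectors, RNA and DNA sensors and antigen presentation. The interferon-stimulated response element, a pair of GAAA blocks with a short spacer, is the promoter sequence that the STAT and IRF complexes bind. B cells carry this pathway and also make the cytokines TNF and lymphotoxin.

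The 12 arrays were alike in scale, with medians of 4.07 to 4.12 and correlations within groups of 0.995 to 0.997. B cell markers were present, with medians over the arrays of 12.47 for MS4A1, 11.39 for PAX5, 10.45 for CD79B, 8.28 for CD79A and 7.98 for CD22. Of the markers of other cell types, 14 of 24 T and NK cell, 3 of 17 myeloid and 7 of 18 stromal, endothelial and epithelial genes had medians above 4.06, the lowest median of any array. The highest values were those of DCN (12.67) and the T cell genes CD3G (10.43), CD247 (9.75) and CD3D (8.81), with MPEG1 at 6.64 and COL1A1 at 6.22. CD14, MPO, CD2, NKG7, EPCAM and VWF had medians of 2.32 to 3.74, below every array's median. None of 24 T and NK cell markers or 17 myeloid markers passed the test below, with CD8A at 0.56 and GZMA at 0.33, and MPEG1 at 1.25 (adjusted p = 0.158, and 0.0174 with the replicate block described below) and CD163 at 0.52 among the myeloid ones. That test called 0.541% of all genes with a larger and 0.0354% with a smaller difference, so the absence of calls in lists of this size says little. The GAPDH difference between 3′ and 5′ control probe sets, a sign of RNA integrity, was 0.28 to 0.37 on the EED226 48 h arrays, 0.24 to 0.26 in DMSO at 48 h, 0.25 to 0.26 in EED226 at 24 h and 0.24 to 0.29 in DMSO at 24 h; its part in the results was not tested. For ACTB the 4 group means were 3.26, 3.18, 3.11 and 3.15 in the same order.

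The change was mostly upwards. EED226 minus DMSO was larger at 48 h for 107 genes (0.541% of 19775) and smaller for 7 (0.0354%), by limma with an adjusted p under 0.05, and it was larger by at least 1 log2 unit for 51 and smaller by at least 1 for 1 gene, LTA. Without adjustment, 1492 of 19775 genes had p under 0.05, a threshold that genes without change also pass at that rate. Of the 107 genes, 30 belong to the 3 interferon lists, 9 more to another list examined, and 68 to none. In all 114, each of the 9 possible EED226 minus DMSO differences at 48 h lay beyond each of the 9 at 24 h, which was also so in 3.18% of all genes upwards and in 2.21% downwards. The 114 were chosen by a test on these same arrays, so their separation is a description and no further support. At each time alone, EED226 was higher than DMSO for 1337 genes (6.76%) at 48 h and for 165 (0.834%) at 24 h, and lower for 529 (2.68%) and 7 (0.0354%).

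**Figure D1:**
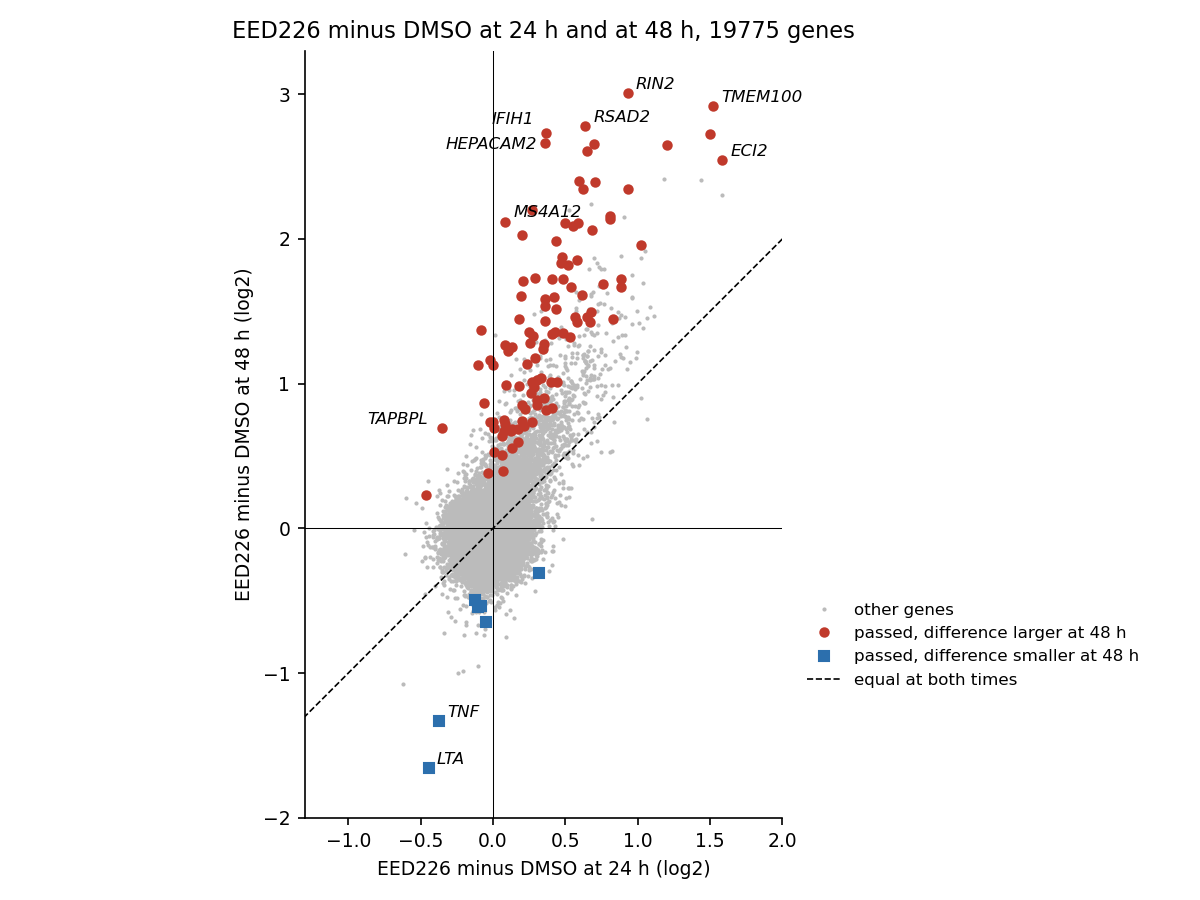
Each point is 1 of 19775 genes, with EED226 minus DMSO at 24 h on the horizontal axis and at 48 h on the vertical axis, both in log2 units. Red circles are the 107 genes with a larger and blue squares the 7 with a smaller difference at 48 h (adjusted p under 0.05); the distance above or below the dashed line is the change, 2.37 for IFIH1 and -1.21 for LTA.

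These counts depended on the fit. With the replicate number as a block within each time they were 185 larger and 14 smaller, and with array weights 238 and 39. Leaving out 1 array gave 62 to 106 larger and 1 to 10 smaller: 62 larger without EED226 24 h replicate 2, 63 and 66 without EED226 48 h replicates 2 and 3, 69 and 65 without DMSO 48 h replicates 1 and 3, and 71 without DMSO 24 h replicate 3. The smaller ones were 2 without EED226 48 h replicate 2, 2, 3 and 3 without DMSO 48 h replicates 1, 2 and 3, 2 and 2 without EED226 24 h replicates 1 and 2, and 1, 4 and 3 without DMSO 24 h replicates 1, 2 and 3. Of the 107 genes, 52 passed in each of these 12 fits, and of the 7 only TUBA4A. With the ACTB 3′ to 5′ difference as a covariate 121 were larger and 7 smaller. Some genes were dim: 19 of the 114 had both DMSO means below the lowest array median of 4.06, called dim here, where sizes are uncertain, and 5 had all 4 means below it.

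Sensors of foreign nucleic acid were among the leading changes. Of 18 measured sensors and adaptors, 5 had a larger difference at 48 h and none a smaller one, against 0.541% and 0.0354% of all genes. The list median was 0.41 against -0.0048 over all genes. IFIH1, which encodes the sensor of long double-stranded RNA MDA5, read 6.09, 6.53 and 6.36 in EED226 at 48 h, 3.78, 3.52 and 3.48 in DMSO at 48 h, 3.80, 3.53 and 3.22 in EED226 at 24 h and 3.23, 3.21 and 3.03 in DMSO at 24 h. Only the EED226 48 h arrays stood apart, by more than 2 units, while EED226 and DMSO at 24 h overlapped in part. EED226 minus DMSO was 2.73 at 48 h and 0.36 at 24 h, a change of 2.37 ± 0.24 (SE, adjusted p = 2.23e-06); the means of all groups but EED226 at 48 h are dim, so the size is uncertain.

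AIM2, a sensor of cytosolic double-stranded DNA that builds the inflammasome, read 6.58, 6.81 and 5.89 in EED226 at 48 h and 3.73, 3.90 and 3.67 in DMSO at 48 h, and 4.86, 4.46 and 4.31 in EED226 at 24 h and 3.92, 3.96 and 3.64 in DMSO at 24 h. At both times its EED226 arrays all lay above its DMSO arrays, and the difference widened by 1.96 ± 0.30 (adjusted p = 0.000553). Its DMSO means of 3.77 at 48 h and 3.84 at 24 h are dim, so the size is uncertain. Its neighbour in gene order, IFI16, another DNA sensor, changed by 1.22 (adjusted p = 0.0944 with the mean of its probe sets). RIGI, the sensor of short RNA with a 5′ triphosphate, had 1.26 at 48 h and 0.13 at 24 h, a change of 1.12 ± 0.13 (adjusted p = 1.85e-05). MYD88, the adaptor of most Toll-like receptors, changed by 0.51. Values of the others ran from -0.36 for TLR3 to 1.16 for TLR7 without passing. With the replicate block DHX58 (0.66) and EIF2AK2 (0.63) passed, with adjusted p of 0.0418 and 0.0182. CGAS and STING1, of the cytosolic DNA pathway, had -0.10 and -0.03, and MAVS, the adaptor of IFIH1 and RIGI, had -0.02.

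**Figure D2:**
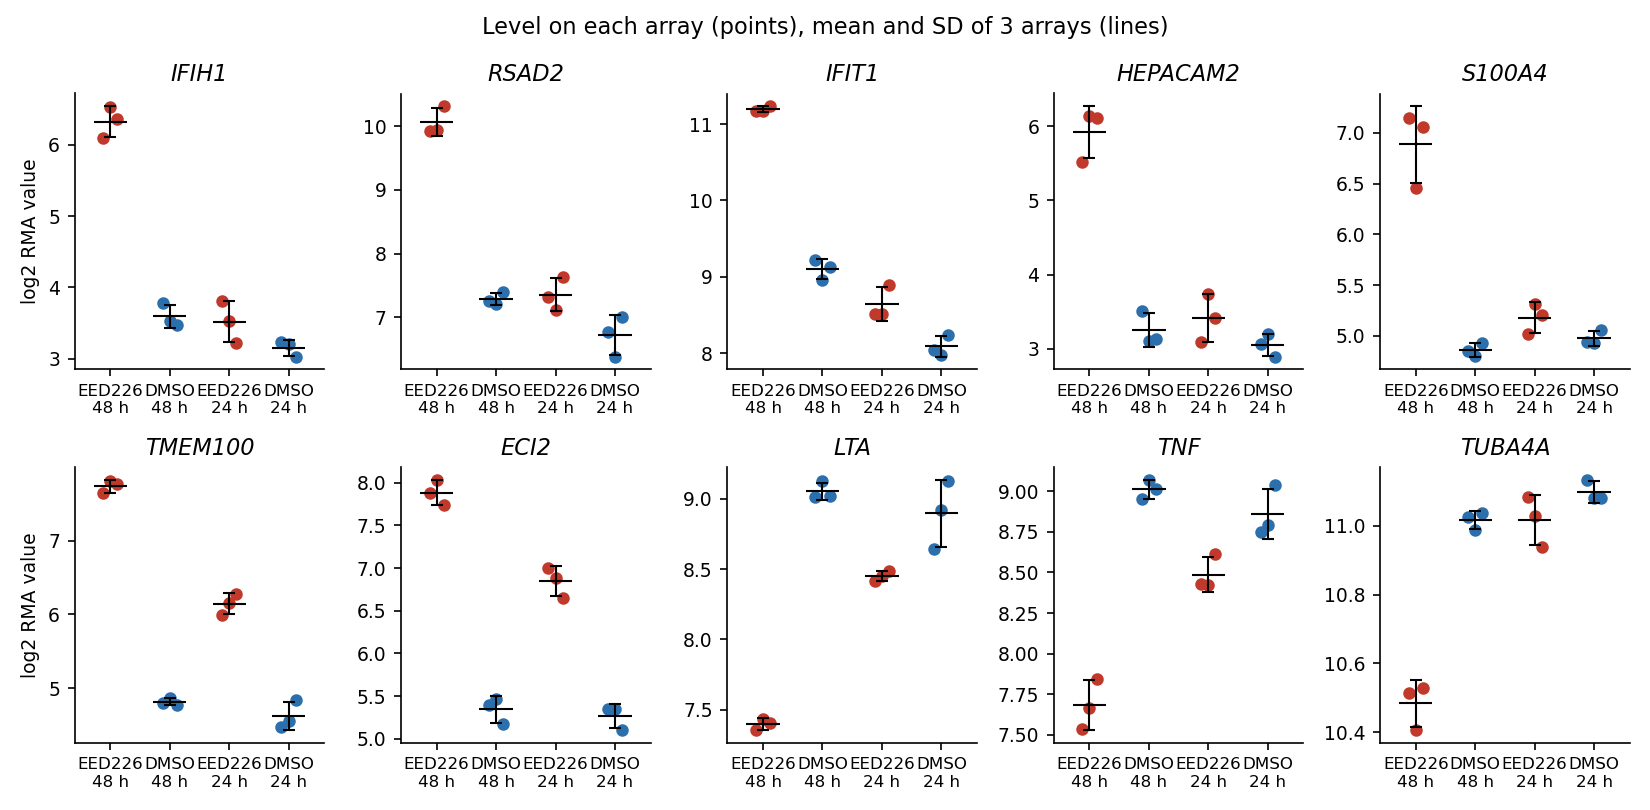
Points are the log2 RMA values of single arrays for 10 genes, and lines the mean and SD of 3 arrays, with EED226 in red and DMSO in blue and a separate vertical scale for each gene. For IFIH1, RSAD2, IFIT1, HEPACAM2 and S100A4 the EED226 48 h arrays lie above all others, TMEM100 and ECI2 are already higher in EED226 at 24 h, and LTA, TNF and TUBA4A are lowest in EED226 at 48 h.

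Promoters of 4 genes that changed are given as examples with and without a match to the letters of the interferon-stimulated response element. Each run is the 250 bases before the gene's start, 5′ to 3′ on the gene's strand, from RefSeq on GRCh38.p14, with matches to GAAANNGAAA on either strand in capitals. IFIH1 (chr2:162318685-162318934, minus strand), RTP4 (chr3:187368135-187368384, plus strand) and IFIT1 (chr10:89392373-89392622, plus strand) hold matches, and S100A4 (chr1:153545807-153546056, minus strand), whose change was 1.82, holds none.
IFIH1: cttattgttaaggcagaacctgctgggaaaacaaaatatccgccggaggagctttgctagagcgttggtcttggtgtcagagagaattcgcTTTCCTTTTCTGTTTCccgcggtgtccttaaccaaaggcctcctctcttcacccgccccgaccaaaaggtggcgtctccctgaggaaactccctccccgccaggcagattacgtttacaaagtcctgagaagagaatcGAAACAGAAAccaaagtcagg
RTP4: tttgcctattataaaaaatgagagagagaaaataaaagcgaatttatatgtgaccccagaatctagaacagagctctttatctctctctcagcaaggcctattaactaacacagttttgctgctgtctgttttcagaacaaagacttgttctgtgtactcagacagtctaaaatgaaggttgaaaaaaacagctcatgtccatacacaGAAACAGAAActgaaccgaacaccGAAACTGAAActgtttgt
IFIT1: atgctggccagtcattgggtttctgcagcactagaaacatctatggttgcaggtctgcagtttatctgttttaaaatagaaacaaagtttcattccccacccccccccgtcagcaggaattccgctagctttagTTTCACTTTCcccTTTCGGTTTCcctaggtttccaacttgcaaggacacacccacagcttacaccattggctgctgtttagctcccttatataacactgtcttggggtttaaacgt
S100A4: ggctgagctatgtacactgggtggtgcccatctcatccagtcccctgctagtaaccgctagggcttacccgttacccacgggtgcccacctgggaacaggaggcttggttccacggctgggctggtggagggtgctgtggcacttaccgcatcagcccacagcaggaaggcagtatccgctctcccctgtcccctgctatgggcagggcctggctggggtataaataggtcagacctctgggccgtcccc
IFIH1 has 3 matches, the first 2 of which overlap, between 159 and 12 bases before its start, RTP4 has 2 between 42 and 9, and IFIT1 has 2 on the opposite strand between 116 and 94.

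Of 15384 measured genes with a promoter entry, 2.48% held the motif in this window, taking the first listed start of a gene. It was in 21 of 84 genes with a larger difference at 48 h (25%), in 14 of 24 of those in the interferon lists (58.3%) and in 7 of 60 outside them (11.7%). These 7 include MS4A12, which changed by 2.04, CARINH (1.42), SHFL (0.90) and TRIM5 (0.74), named after their values were seen. The split rests on the lists used, and whether genes outside them respond to interferon was not tested. Over all 39 interferon-stimulated effectors with an entry, whatever their change, the share was 61.5%, and none of the 7 genes with a smaller difference held it. A match is a description of the letters only.

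The antiviral effectors made up the largest group. Of 46 measured interferon-stimulated effectors, 24 had a larger difference at 48 h and none a smaller one, against 0.541% and 0.0354% of all genes. In the list 44 values were above 0, and among all genes 48.9% of values were. The list median was 0.88, with EED226 minus DMSO at 1.13 at 48 h and 0.28 at 24 h. Single alternative fits gave 18 to 34 members and medians of 0.77 to 0.92. With the replicate number as a block within time the count was 34, and 185 of all 19775 genes had a larger difference.

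RSAD2, which encodes the antiviral enzyme viperin, read 9.93, 9.94 and 10.32 in EED226 at 48 h, 7.25, 7.20 and 7.39 in DMSO at 48 h, 7.31, 7.11 and 7.63 in EED226 at 24 h and 6.77, 6.38 and 7.003 in DMSO at 24 h. The change was 2.14 ± 0.34 (adjusted p = 0.000932), and CMPK2, next to it in gene order, changed by 0.89 (adjusted p = 0.0513 with only the 12 arrays). IFIT1, an inhibitor of the translation of foreign RNA, read 11.17, 11.17 and 11.24 in EED226 at 48 h, 9.22, 8.95 and 9.13 in DMSO at 48 h, 8.52, 8.52 and 8.90 in EED226 at 24 h and 8.05, 7.98 and 8.24 in DMSO at 24 h. Its change was 1.54 ± 0.19 (adjusted p = 4.74e-05), on top of an increase of 1.01 in DMSO alone. Its neighbours IFIT2, IFIT3 and IFIT5 changed by 1.96, 1.40 and 1.13.

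Enzymes that make the RNase L activator 2-5A changed by 1.44 for OAS2, 1.03 for OAS3 and 0.68 for OAS1, and their catalytically inactive relative OASL by 1.81 ± 0.26. OAS3 and OAS1 passed in 3 of the 12 fits without 1 array each, with adjusted p of up to 0.0966 and 0.173, and OAS3 had 0.61 (adjusted p = 0.454) with the mean of its probe sets. OAS1 had adjusted p of 0.145 with only the 12 arrays. MX2, a GTPase that restricts viruses, changed by 1.55 ± 0.19 (adjusted p = 4.19e-05), and its relative MX1 had 0.53 and did not pass (adjusted p = 0.329). Others among the largest were XAF1 (1.72), known to promote cell death, RTP4 (1.69), IFI44L (1.52) with its neighbour IFI44 (0.93), and IFI27 (1.93 ± 0.40, adjusted p = 0.0182). IFI44 passed in 3 of the 12 fits without 1 array (adjusted p of up to 0.143). IFI27 lost its call without EED226 48 h replicate 3, DMSO 48 h replicate 2, EED226 24 h replicate 1 or DMSO 24 h replicate 2, with values of 1.69 to 1.85. SAMD9L, a regulator of endosomes and translation, changed by 1.08 ± 0.13 (adjusted p = 4.19e-05). Some members had little change: ISG15, the ubiquitin-like modifier, had 0.21, GBP2 -0.05 and HERC5 -0.06.

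The effectors also moved in the solvent control. In DMSO, 16 genes were higher at 48 h than at 24 h (0.0809%) and 1 was lower (0.00506%), and 15 of the 16 belong to the interferon lists; the other is MCF2. IFI44L was higher by 1.20 ± 0.17 in DMSO at 48 h (adjusted p = 0.00181), IFIT1 by 1.01 ± 0.14 (adjusted p = 0.00137) and OAS2 by 0.97 ± 0.16 (adjusted p = 0.00961). Within EED226, 665 genes were higher at 48 h than at 24 h (3.36%) and 253 lower (1.28%). The list median of the 48 h minus 24 h difference was 1.34 in EED226 and 0.56 in DMSO. Median levels of the list in DMSO were 7.40 at 8 h, 8.10 at 24 h, 8.66 at 48 h, 8.91 at 72 h and 8.85 at day 6, and in EED226 they were 7.42, 8.52, 10.01, 10.83 and 11.23 at the same times, beside 7.36 at 0 h. The DMSO arrays used here also enter the main comparison.

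**Figure D3:**
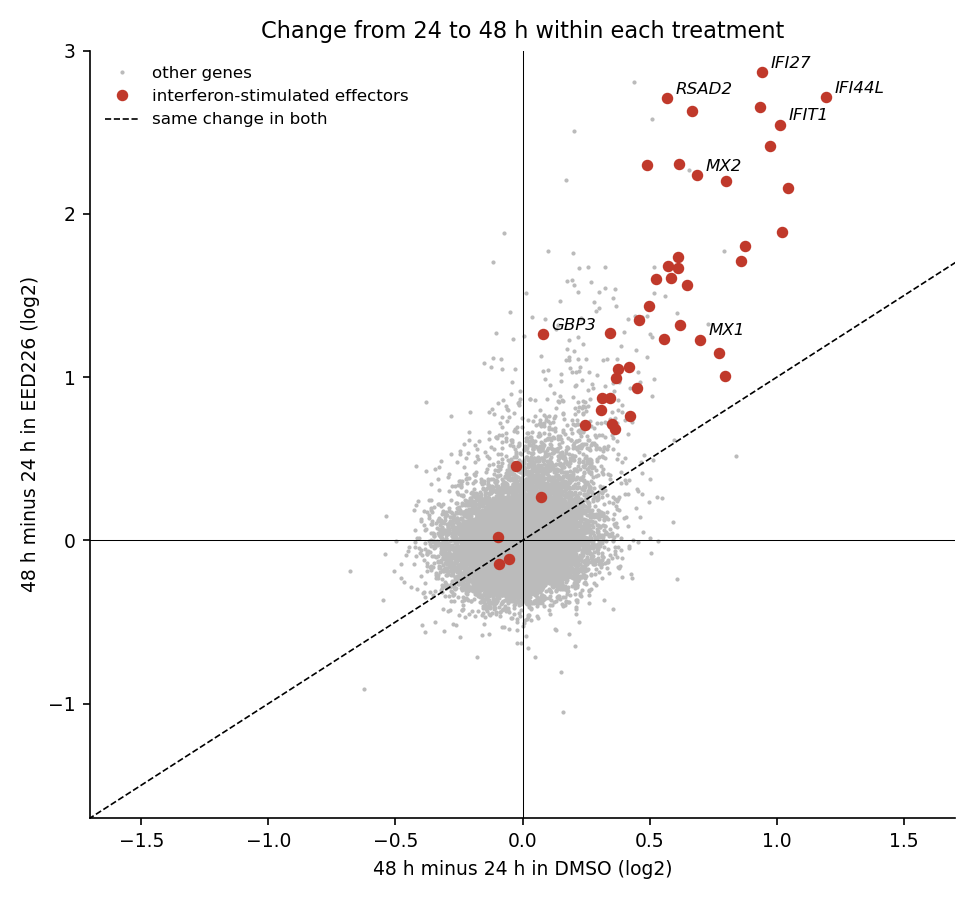
Each point is a gene, with 48 h minus 24 h in DMSO on the horizontal axis and in EED226 on the vertical axis, in log2 units, and the 46 interferon-stimulated effectors in red. Of the 46 effectors, 44 lie above the dashed line of equal change in both treatments, with medians of 1.34 in EED226 and 0.56 in DMSO.

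Among genes that produce and receive interferon few calls were made, and whether they differ from the effectors was not tested. The share with a larger difference over all genes was 0.541%. Of 22 measured ligands, receptors and signalling factors 1 passed, USP18, which removes ISG15 from proteins and dampens the receptor, with a change of 1.61 ± 0.23 (adjusted p = 0.000237); the list median was 0.07, and single alternative fits gave 1 to 4 members and medians of 0.0094 to 0.30. The ligand IFNB1 had 0.47 ± 0.28 with means of 3.76 in EED226 and 3.14 in DMSO at 48 h, below the median of every array. IFNA1, IFNL1 and IFNG had -0.10, -0.16 and 0.20, and the receptor chains IFNAR1 and IFNAR2 had -0.12 and -0.13. The factors IRF7 and IRF9 had 0.60 (adjusted p = 0.18) and 0.39 (0.302, and 0.0418 with the replicate block).

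In MHC class I presentation 17 of 18 values were above 0 (48.9% over all genes), with a median of 0.31. Here 1 gene passed, with a larger difference, against 0.541% of all genes. TAPBPL, a peptide editor, read 5.19, 5.19 and 4.86 in EED226 at 48 h, 4.54, 4.28 and 4.35 in DMSO at 48 h, 4.64, 4.30 and 4.03 in EED226 at 24 h and 4.70, 4.76 and 4.56 in DMSO at 24 h. Its difference was 0.69 at 48 h and -0.35 at 24 h, a change of 1.04 ± 0.20 (adjusted p = 0.00655); DMSO alone had -0.28 between the times. The peptide transporter TAP1 had 0.50 (adjusted p = 0.0795, and 0.0128 with the replicate block) and HLA-B and HLA-C had 0.41 and 0.40. HLA-E had 0.45 (adjusted p = 0.646, and 0.00799 with the replicate block). None of 17 MHC class II genes passed (median 0.11), with HLA-DOA at 0.29 and the invariant chain CD74 at 0.16.

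**Figure D4:**
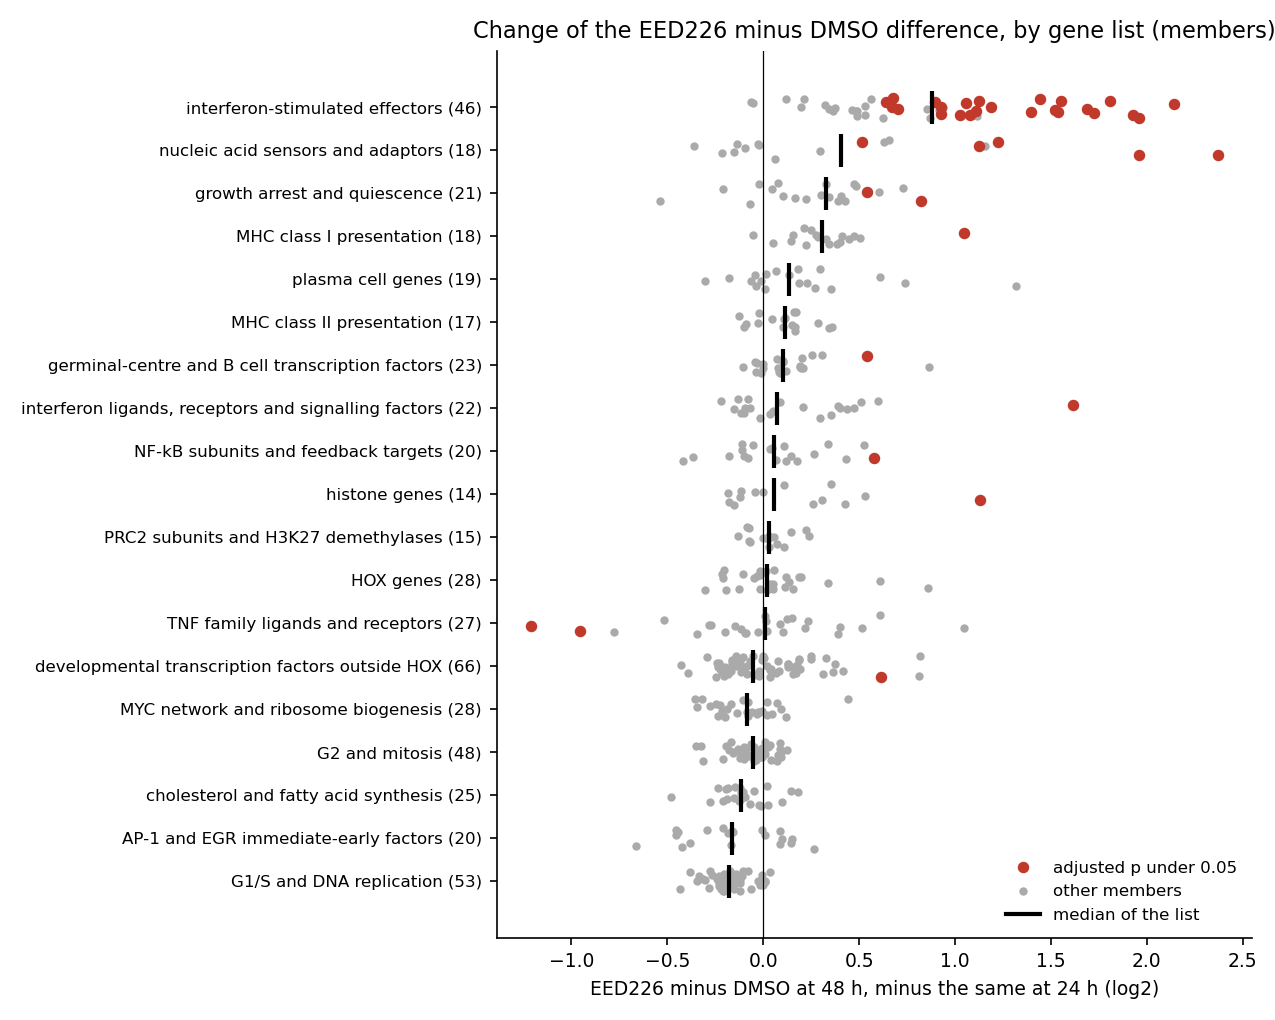
Change of EED226 minus DMSO from 24 h to 48 h in log2 units for every measured member of 19 gene lists, with members that passed the test in red, others in grey and the list median as a black bar. Interferon-stimulated effectors (median 0.88) and nucleic acid sensors (0.41) reach furthest right, TNF and LTA are the red points on the left, and the G1/S and DNA replication list (-0.18) is lowest.

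Outside the interferon lists the largest changes were of genes with varied roles. HEPACAM2, an adhesion molecule of the immunoglobulin superfamily and the neighbour of SAMD9L in gene order, read 5.51, 6.14 and 6.11 in EED226 at 48 h, 3.52, 3.11 and 3.14 in DMSO at 48 h, 3.09, 3.74 and 3.41 in EED226 at 24 h and 3.06, 3.20 and 2.89 in DMSO at 24 h. The change was 2.30 ± 0.23 (adjusted p = 2.23e-06), with dim values in all groups but EED226 at 48 h. RIN2, an exchange factor for the endosomal GTPase RAB5, read 6.74, 6.73 and 6.93 in EED226 at 48 h, 3.76, 3.72 and 3.90 in DMSO at 48 h, 4.27, 4.14 and 4.23 in EED226 at 24 h and 3.33, 3.01 and 3.51 in DMSO at 24 h. EED226 was higher at both times, beyond the spread, and the change was 2.08 ± 0.23 (adjusted p = 1.36e-05), though the other probe set of the gene moved the opposite way. The DMSO means of RIN2, 3.79 at 48 h and 3.28 at 24 h, are dim, so this size is uncertain too.

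S100A4, a calcium-binding protein of motile cells, read 7.15, 6.45 and 7.06 in EED226 at 48 h, 4.86, 4.80 and 4.93 in DMSO at 48 h, 5.01, 5.32 and 5.20 in EED226 at 24 h and 4.94, 4.93 and 5.06 in DMSO at 24 h. The change was 1.82 ± 0.25 (adjusted p = 0.00018), and EED226 minus DMSO was 2.02 at 48 h but 0.75 at day 6. MS4A12, a relative of CD20, changed by 2.04 ± 0.33 (adjusted p = 0.00128), with 2.12 at 48 h and 0.08 at 24 h. P4HA2, a prolyl hydroxylase of collagen, changed by 1.50 ± 0.25, but the probe set that is brightest on control arrays gave 0.41 (adjusted p = 0.785). H2AC6, a core histone gene, changed by 1.13 ± 0.22, with a difference of -0.0033 at 24 h. Both genes have dim means in all groups but EED226 at 48 h, 3.44, 3.63 and 3.43 for P4HA2 and 2.95, 2.72 and 2.72 for H2AC6 in DMSO at 48 h, EED226 at 24 h and DMSO at 24 h. PECAM1, an adhesion molecule and the 1 of 18 stromal, endothelial and epithelial markers that passed, changed by 1.35 (DCN, next by p, had 0.24), but the probe set that is brightest on control arrays gave -0.13 (adjusted p = 0.949). The share with a larger difference over all genes was 0.541%.

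Of the 10 genes with the largest rises at 24 h, 4 passed with a larger difference still at 48 h, and over all genes the share was 0.541%. These 10 were chosen by the 24 h difference, which is subtracted in the change, so that the choice itself lowers the change, and the counts are a description. TMEM100, a membrane protein of BMP signalling, read 7.64, 7.81 and 7.76 in EED226 at 48 h, 4.81, 4.87 and 4.78 in DMSO at 48 h, 6.00, 6.16 and 6.28 in EED226 at 24 h and 4.47, 4.56 and 4.84 in DMSO at 24 h, a change of 1.40 ± 0.23 (adjusted p = 0.00185). ABAT, which degrades GABA, changed by 1.45 ± 0.32, KIAA1210 by 1.22 ± 0.26 and ECI2, an enoyl-CoA isomerase, by 0.96 ± 0.20. These 3 passed in 4, 5 and 8 of the 12 fits without 1 array, with adjusted p of up to 0.109, 0.0842 and 0.0649, and the probe set of ABAT chosen on control arrays gave 0.93 (adjusted p = 0.17). ECI2 lost its call without EED226 48 h replicate 2, DMSO 48 h replicate 3, EED226 24 h replicate 3 or DMSO 24 h replicate 1.

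The other 6 did not pass, with values of 0.36 to 1.24 against 0.96 to 1.45 in the 4 that did. SERPINE2, a serine protease inhibitor, had 0.72 ± 0.35 (adjusted p = 0.657), and ID2, an inhibitor of E proteins, 1.24 ± 0.36 (adjusted p = 0.194). With the replicate block both passed (adjusted p = 0.000713 and 0.00201). SLC25A43, PLS1, DNAJC6 and MAP3K20 had 0.97, 0.45, 0.39 and 0.36. Since SEs reached 0.36 here, values of this size are not shown to be 0.

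Falls were few and led by neighbouring cytokine genes. Of 27 TNF family ligands and receptors 2 had a smaller difference at 48 h and none a larger one, against 0.0354% and 0.541% of all genes. The list median was 0.01. LTA, which encodes lymphotoxin alpha, read 7.35, 7.43 and 7.41 in EED226 at 48 h, 9.01, 9.12 and 9.02 in DMSO at 48 h, 8.42, 8.45 and 8.49 in EED226 at 24 h and 8.65, 8.92 and 9.13 in DMSO at 24 h. EED226 minus DMSO was -1.66 at 48 h and -0.44 at 24 h, where it did not pass by limma (adjusted p = 0.48). The change was -1.21 ± 0.25 (adjusted p = 0.016), and without DMSO 24 h replicate 1 it was -1.09 (adjusted p = 0.067). TNF read 7.54, 7.67 and 7.84 in EED226 at 48 h, 8.95, 9.07 and 9.02 in DMSO at 48 h, 8.43, 8.42 and 8.61 in EED226 at 24 h and 8.75, 8.79 and 9.04 in DMSO at 24 h. Its change of -0.96 ± 0.22 (adjusted p = 0.0326) passed in 2 of the 12 fits without 1 array, those without EED226 48 h replicate 3 or DMSO 24 h replicate 3, and ran to an adjusted p of 0.102. TNFSF8, the ligand of CD30, had 1.05 (adjusted p = 0.0503, and 0.00453 with the replicate block).

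TUBA4A, an alpha tubulin, was the fall that passed in every fit without 1 array. It read 10.52, 10.41 and 10.53 in EED226 at 48 h, 11.03, 10.99 and 11.04 in DMSO at 48 h, 11.08, 11.03 and 10.94 in EED226 at 24 h and 11.13, 11.08 and 11.08 in DMSO at 24 h, a change of -0.45 ± 0.09 (adjusted p = 0.00764). SAPCD2, a regulator of spindle orientation, changed by -0.60 ± 0.13, SYNGR1, a vesicle protein, by -0.44 ± 0.10 and SLC39A8, a zinc transporter, by -0.37 ± 0.09. They passed in 2, 2 and 0 of the 12 fits without 1 array, and with the replicate block SAPCD2 and SYNGR1 had adjusted p of 0.0573 and 0.0532. Of 11 alternatives that leave out no array, SYNGR1 passed in 7 and SLC39A8 in 8. With the mean of all probe sets they had -0.23 (adjusted p = 0.656) and -0.20 (adjusted p = 0.812), and 1 of 5 other probe sets of SLC39A8 moved the opposite way. The homeobox gene MEOX2 changed by -0.63 ± 0.14 with all 4 means dim, and its difference was -0.31 at 48 h and 0.32 at 24 h; it passed in 4 of the 12, and had an adjusted p of 0.15 with only the 12 arrays.

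Genes of growth arrest leaned upwards, with 17 of 21 values above 0 (48.9% over all genes) and a median of 0.33. Of the 21, 2 passed with a larger difference, against 0.541% of all genes. With the replicate block SESN3 passed as well, at 0.73 (adjusted p = 0.0377). GADD45A, a stress protein that acts on the cell cycle, read 9.06, 9.29 and 9.24 in EED226 at 48 h, 7.72, 7.77 and 7.60 in DMSO at 48 h, 8.02, 8.13 and 8.33 in EED226 at 24 h and 7.31, 7.48 and 7.67 in DMSO at 24 h, a change of 0.82 ± 0.16 (adjusted p = 0.00817). FOXO1, a transcription factor of germinal-centre B cells and of quiescence and in both lists, changed by 0.54 ± 0.12 (adjusted p = 0.021) and passed in 5 of the 12 fits without 1 array (adjusted p = 0.19 with the mean of its probe sets). Among the other 22 B cell transcription factors none passed; BACH2, a repressor of plasma cell fate, had 0.87 (adjusted p = 0.221). None of 19 plasma cell genes passed; JCHAIN, which joins antibody polymers, had 1.32 (adjusted p = 0.164) and the receptor TNFRSF17 0.61 (adjusted p = 0.366). With the replicate block 3 plasma cell genes passed: JCHAIN (adjusted p = 0.0128), TNFRSF17 (0.0314) and CD38, which had 0.74 (0.0488). Of all 19775 genes 185 had a larger difference with this block.

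Proliferation genes had small negative values. Among all genes 48.9% of values were above 0, and 0.541% passed with a larger and 0.0354% with a smaller difference. In the list of 53 G1/S and replication genes 49 were below 0, from -0.43 to 0.03 with a median of -0.18, and none passed; POLD1, a DNA polymerase subunit, had -0.38 ± 0.12 (adjusted p = 0.251) and DNMT1 -0.28. Of 48 G2 and mitosis genes none passed (median -0.05), with PLK1 at -0.35 and MYBL2 at -0.33. In this list and in those of 28 MYC and ribosome genes (median -0.08) and 25 cholesterol and fatty acid genes (-0.12), 35, 21 and 20 values were below 0. With the replicate block 1 gene of the MYC list passed, with a larger difference: MXI1, an antagonist of MYC, at 0.44 (adjusted p = 0.0267). Of all 19775 genes 185 had a larger difference with this block. RRS1 and POLR1C had -0.22 and -0.24, and SREBF1 and TMEM97 had -0.48 and -0.19. Because arrays measure the average of all cells, fewer cells of a kind and less RNA per cell cannot be told apart.

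Few members of the other lists passed. Over all genes 0.541% had a larger and 0.0354% a smaller difference at 48 h. Among the lists above, the replicate block gave 3 MHC class I genes, 2 interferon signalling genes and 2 TNF family genes with a larger difference, and 3 TNF family genes with a smaller one, LTB at -0.78 (adjusted p = 0.0222) besides LTA and TNF. With this block 185 of all 19775 genes had a larger and 14 a smaller difference. CYLD, a deubiquitinase that restrains NF-kB, changed by 0.58 (1 of 20 in its list, where NFKBIZ had 0.52), P4HA2 and the mitophagy receptor BNIP3L (0.49) were 2 of 31 glycolysis and hypoxia genes, H2AC6 was 1 of 14 histone genes (MACROH2A1 had -0.15), and SOX9 (0.62 ± 0.13, adjusted p = 0.0157) was 1 of 66 developmental factors outside HOX. CYLD, BNIP3L and SOX9 passed in 1, 4 and 10 of the 12 fits without 1 array; SOX9 lost its call without EED226 48 h replicate 2 or DMSO 48 h replicate 1. With the mean of all probe sets CYLD and SOX9 had adjusted p of 0.705 and 0.312, and BNIP3L had 0.134 with renewed quantile normalization. None of 28 HOX genes passed, with HOXB3 at 0.86 (adjusted p = 0.0548) and HOXB4 at 0.34, and MEIS1 had 0.82 (adjusted p = 0.141). With the replicate block HOXB3 and MEIS1 passed (adjusted p = 0.0222 and 0.00891). The lists with no member passing had as their smallest p ITGB2 (-0.48) and S1PR2 (-0.38) of 19 trafficking receptors, PTPN6 (-0.56; adjusted p = 0.00803 with the replicate block) and BLNK (0.42) of 25 B cell receptor genes, and BCL2A1 (0.73) and MCL1 (0.18) of 15 BCL2 family genes. KLF4 (-0.66) and MAFF (-0.46) came from 20 immediate-early factors (median -0.16), DUSP1 (-0.34) and SPRED2 (0.54) from 15 MAPK inhibitors, and RBL2 (0.29) and CDKN1B (0.34) from 10 CDK inhibitors and RB genes. SDF2L1 (-0.30) and ERN1 (0.48) came from 36 unfolded protein and amino acid genes, and FKBP4 (-0.30) and HSPA4 (-0.24) from 14 heat shock genes.

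The genes of the complex that EED226 binds did not pass. EED had -0.07 ± 0.07, EZH2, the catalytic subunit, -0.08 ± 0.11, SUZ12, the scaffold subunit, 0.03 ± 0.10 and EZH1, the other catalytic subunit, 0.14 ± 0.11, although its other probe sets, 4 in number, gave negative values. The sign of SUZ12 turned in 3 alternative fits. JARID2, a cofactor that helps recruit the complex, had 0.24 ± 0.14 (adjusted p = 0.769). None of 15 PRC2 subunits and H3K27 demethylases passed, and none of 17 PRC1 subunits, with CBX6 at -0.27 and PCGF5 at 0.42. The shares over all genes were 0.541% larger and 0.0354% smaller, so the absence of calls in lists of this size is not a result about them.

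The next interval was set beside this one. From 48 h to 72 h, EED226 minus DMSO became larger for 93 genes (0.47%) and smaller for 8 (0.0405%), a comparison that uses the same 48 h arrays. IFIH1 changed by 2.37 from 24 h to 48 h and by 2.27 from 48 h to 72 h, HEPACAM2 by 2.30 and 2.11, IFIT1 by 1.54 and 0.57, S100A4 by 1.82 and 0.44, and H2AC6 by 1.13 and 2.71. With the 2 intervals tested against each other, 0 genes passed by limma in either direction (0.0% each). By the same test 519 of 19775 had an unadjusted p under 0.05, which genes without change also reach at that rate. Single alternatives gave 0 to 2 higher and 0 lower. A gene that changed in 1 interval is thus not shown to differ between the 2.

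**Figure D5:**
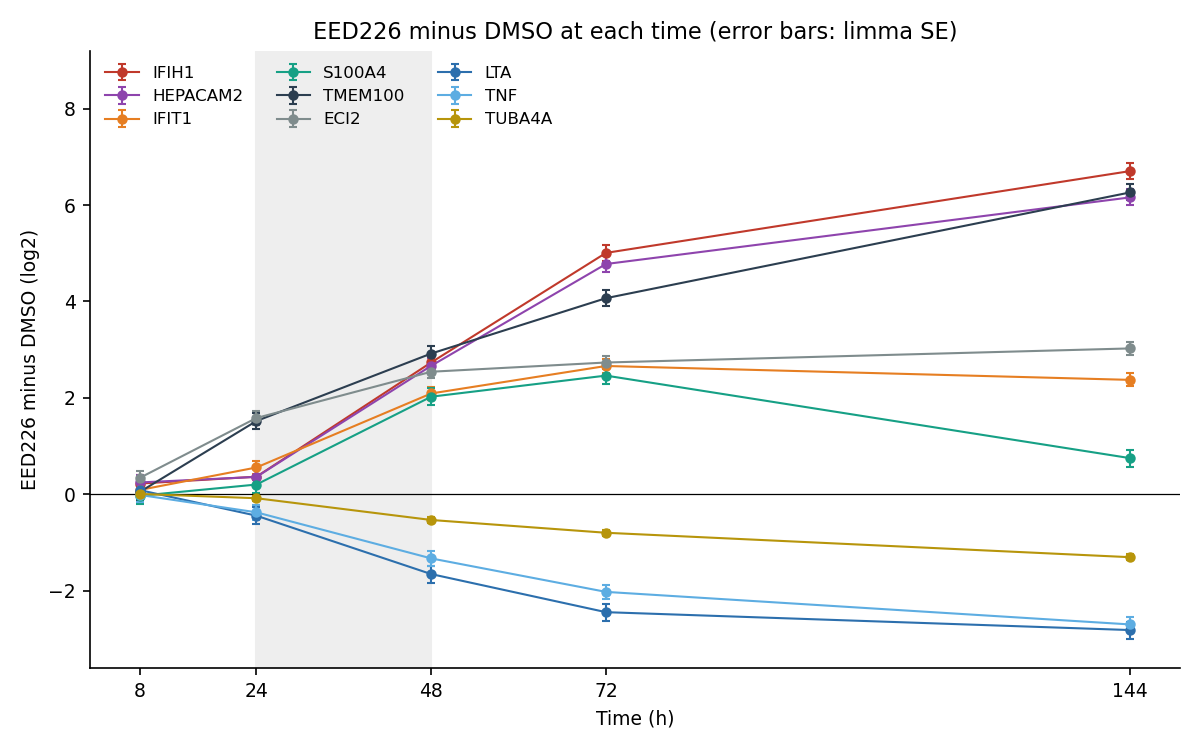
EED226 minus DMSO in log2 units at 8, 24, 48 and 72 h and at day 6 for 9 genes, with error bars of 1 limma SE and the interval from 24 h to 48 h shaded. IFIH1 and HEPACAM2 are near 0.36 at 24 h and at 2.73 and 2.66 at 48 h, TMEM100 and ECI2 are higher at 24 h (1.52 and 1.58), S100A4 falls back to 0.75 at day 6, and LTA, TNF and TUBA4A go down.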

How the data were processed

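RNA (TRIZOL) was labelled by 3′ IVT and hybridised to Affymetrix arrays, per the labels' protocols. The authors deposited log2 values per probe set from RMA, which corrects background and normalizes by quantiles, per the submitters' processing notes. No RMA version or batch is given in the sources used here. Groups follow the titles, which name EED226.

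Of 54675 probe sets, 41091 had 1 gene symbol; probe sets with several symbols (1801) or none (11721), and 62 controls, were left out. Each of 19775 genes was measured by its brightest probe set over 33 arrays. Of the 114 genes that passed, 73 have other probe sets, 21 of them with 1 of opposite sign, and 36 were measured by probe sets that may match several transcripts.

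limma 3.58.1 (R 4.3.3) fitted 11 group means to all arrays (22 residual degrees of freedom); the difference of differences was tested with eBayes, two-sided, with Benjamini-Hochberg adjustment over all genes. SEs come from this fit. EED226 and DMSO arrays of the same time and replicate number deviated together (correlations of 0.23, 0.11 and 0.36 at 24 h and 0.16, 0.17 and 0.15 at 48 h), each array most with its own number. The main fit leaves this pairing out, and fits with the replicate number as a block were alternatives to it. Counts, SEs and adjusted p come from the main fit unless another is named. The value with the block within time is given where it changes the call of a gene named by the rule below. For other genes it is given for some only. On simulated data with 200 of 19775 genes changed, the fit found 38% of changes of 0.5, 82% of 1, 100% of 2 and 90% of -1, with 7 false calls. The simulated noise was independent between arrays, with a shared mean for all groups apart from these changes. It leaves out the correlation of arrays with the same number, so these figures may not hold for the real arrays.

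The comparison, the 31 lists (835 genes, 71 not measured here) and the rule for named genes were chosen with earlier results of these data known. Named are the 15 largest rises and the falls that passed, the 2 smallest p of each list, members of a list that passed, 4 PRC2 genes and the 10 largest rises at 24 h; genes outside it were named after their values were seen. DMSO day 6 replicate 3, which has a 75th percentile of 6.10 against 6.53 and 6.55 on its group's other arrays, enters only the shared spread. The number of arrays limits the precision.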

Additional observations from a re-analysis of the deposited data

Results flagged for a closer look

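The change of EED226 minus DMSO from 24 h to 48 h was itself tested between these times, and each result named here passed that test with limma. It was larger at 48 h for 107 genes and smaller for 7. By size, the larger differences were IFIH1 2.37, HEPACAM2 2.30, RSAD2 2.14, RIN2 2.08, MS4A12 2.04, IFIT2 1.96, AIM2 1.96, IFI27 1.93, S100A4 1.82, OASL 1.81, XAF1 1.72, RTP4 1.69, USP18 1.61, MX2 1.55 and IFIT1 1.54. Named through their lists were P4HA2 1.50, PECAM1 1.35, H2AC6 1.13, RIGI 1.12, SAMD9L 1.08, TAPBPL 1.04, GADD45A 0.82, SOX9 0.62, CYLD 0.58, FOXO1 0.54 and BNIP3L 0.49. Of the early risers, ABAT had 1.45, TMEM100 1.40, KIAA1210 1.22 and ECI2 0.96. The smaller differences were LTA -1.21, TNF -0.96, MEOX2 -0.63, SAPCD2 -0.60, TUBA4A -0.45, SYNGR1 -0.44 and SLC39A8 -0.37.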

How the results depend on the processing

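The genes with a larger difference at 48 h, 107 in the fit over all arrays, were 121 with only the 12 arrays compared, 97 with centred medians, 75 with mean probe sets and 156 with the replicate number as a block over all times. They were 185 with the replicate number as a block within time and 238 with array weights, and 62 to 106 without 1 array. Those with a smaller difference, 7, were 14 with that block, 39 with array weights, 4 with centred medians and 1 to 10 without 1 array. A fit without DMSO day 6 replicate 3, added after seeing the data, gave 149 and 9. Between intervals, genes higher were 1 with mean probe sets, 1 with probe sets chosen on control arrays, 2 with array weights and 0 to 1 without 1 array. Signs turned for EZH1 (-0.11) and SUZ12 (-0.043) with mean probe sets, PECAM1 (-0.13) with probe sets chosen on control arrays, and SUZ12 without EED226 48 h replicate 3 (-0.015) or EED226 24 h replicate 2 (-0.011), where fits without 1 array ran from -0.015 to 0.081; the cause was not tested. The block within time changed the call of 11 of the 91 named genes, each given with its value above. Fits without an array have fewer arrays, and dim genes limit sizes.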

Other observations

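Several of the 68 genes that changed and belong to no list may be worth following, named after their values were seen. Serglycin (SRGN), a granule proteoglycan, changed by 1.42, AGR2, a protein disulfide isomerase of the endoplasmic reticulum, by 1.45 and TENT5C, a poly(A) polymerase known from plasma cells, by 0.94. The other probe set of AGR2 and that of TENT5C moved the opposite way; with the mean of both, AGR2 had 0.69 (adjusted p = 0.151) and TENT5C 0.46 (adjusted p = 0.377), and the probe set of TENT5C that is brightest on control arrays gave -0.021 (adjusted p = 0.996). All means of both genes but those of EED226 at 48 h are below 4.06. SRGN passed in 7 of the 12 fits without 1 array. YPEL2 and YPEL5, relatives of YPEL3, changed by 0.84 and 0.93, of which YPEL5 passed in 0 of the 12 fits without 1 array and YPEL2 had an adjusted p of 0.291 with the mean of its probe sets. SNAI2, a repressor of epithelial genes, changed by 0.45 and passed in 4 of the 12.

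The genes that changed include 10 pairs of neighbours in gene order, 17 genes in all, among them the IFIT, OAS and IFI44 clusters, IFI16 with AIM2, SAMD9L with HEPACAM2 and LTA with TNF. How many such pairs other genes would form was not tested, so the count is a description. The transcript LOC100289473 had a change of 0.69 in which DMSO was lower at 48 h than at 24 h by 0.54, while EED226 moved by 0.15. Its DMSO means of 2.95 at 48 h and 3.49 at 24 h are dim.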
